A study of Homo sapiens with 3 samples.

Results

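RBM genes encode RNA-binding proteins, most of which carry at least one RNA recognition motif. They include spliceosome components and splicing regulators, a core subunit of the exon junction complex, adaptors of the enzyme complex that writes N6-methyladenosine (m6A) on RNA, and factors of nuclear RNA decay. Members of such families commonly regulate each other's pre-mRNAs, and RBFOX2, a splicing regulator that binds GCAUG motifs in introns and in 3′ untranslated regions, acts on transcripts of other RNA-binding proteins.

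The transcripts described here are those of the RBM genes, taken from lists of C-to-U edit clusters. A cluster was counted as RBM when the first gene name listed for it was RBM followed by a number and at most 1 further letter, or RBMX, RBMX2, RBMXL1 or RBMS followed by a digit. These names covered 185 of 40843 clusters and 30 of 9109 first-named genes. In RefSeq, 43 protein-coding symbols fit the same pattern. Besides the 30 first-named genes, RBM12 was named only later in a cluster's list. The other 12, which were RBM5, RBM20, RBM24, RBM34, RBM42, RBM43, RBM44, RBM45, RBM46, RBM47, RBMS2 and RBMS3, were named in no listed cluster. An unlisted gene may have had too few reads to be called, and cannot be told apart here from one without editing.

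All samples were 3 replicates of a single condition. The cells are HEK293T in the sample titles and in the study's text, and HEK293XT (the Lenti-X strain of HEK293T, from human embryonic kidney) in the cell line label, and the genotype label is WT. They were induced with doxycycline for 72 h to express RBFOX2 fused to APOBEC1, a cytidine deaminase that converts C to U in RNA close to where the fusion binds. The labels call the cells transiently transfected, whereas the growth protocol describes stable lines. The fusion was expressed from a construct on top of the cells' own RBFOX2, and cells with APOBEC1 alone or without induction were not analysed here. The deaminase's own activity on these transcripts and editing directed by RBFOX2 therefore cannot be told apart. Cell type markers could not be checked, because the lists hold edited clusters and no expression levels.

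Each cluster carried the number of edited bases, the number of sequenced C bases (covered C), the mean read depth, the number of reads with an edit (edited reads) and a score. Dividing edited bases by covered C gives the edit fraction, in percent, and the pooled edit fraction sums both over the clusters of a gene or group first. Replicates 1, 2 and 3 held 14295, 15181 and 11367 clusters in all. No library totals were at hand. In RBM clusters, 5248, 4503 and 3331 reads were counted, with 174, 159 and 130 edited reads. All intervals below are 95% Wilson intervals and cover counting error only. They count each covered C as independent, and are too narrow where 1 read carries several edits.

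RBM transcripts held 64, 62 and 59 clusters in replicates 1, 2 and 3 (61.7 ± 2.52, SD, n = 3), in 27, 22 and 24 genes. They were a small and steady part of each list, at 0.448%, 0.408% and 0.519% of clusters (0.458% ± 0.0561). The count moved little between replicates although the full lists ranged from 11367 to 15181 clusters. RBM clusters took a smaller share of edited bases (0.328% ± 0.0258) and of covered C (0.268% ± 0.0247) than of clusters.

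The clusters were concentrated in a few genes. RBM39, RBM26, RBM15B, RBMX and RBM8A together held 83 of the 185 clusters (44.9%), the median over the 30 genes was 4.5 clusters, and RBM14, RBM19, RBM41 and RBM48 had 1 cluster each. A cluster was present in every replicate for 17 of the 30 genes (56.7%), against a background of 38.3% of all first-named genes. Genes with more clusters met this more easily. Among genes with at least 4 clusters, 16 of 17 RBM genes (94.1%) and 3193 of 4038 of all genes (79.1%) were present in every replicate. A further 9 RBM genes were present in 2 replicates and 4 in a single one.

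**Figure D1:**
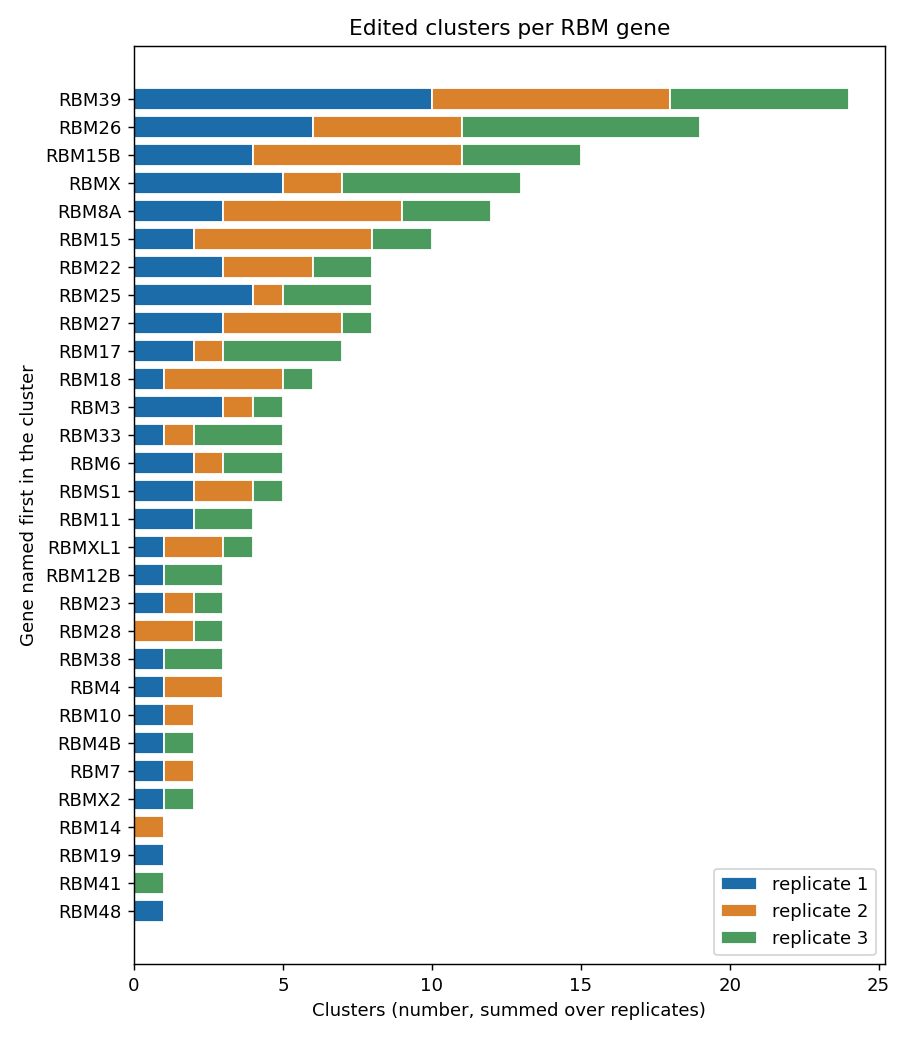
Number of edit clusters in each RBM gene (horizontal axis), stacked by replicate, for the 30 genes named first in at least 1 cluster. RBM39, RBM26, RBM15B, RBMX and RBM8A lead with 24, 19, 15, 13 and 12 clusters, and 17 genes have clusters in all 3 replicates.

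Genes of the spliceosome and of splicing regulation made up the largest role group, with 65 clusters (27, 16 and 22) in 11 of its 15 genes. The group was also the largest by genes, with 15 of the 43 symbols beside 65 of the 185 clusters. The median edit fraction over these clusters was 1.24% at a median depth of 48.4 reads. RBM39, a splicing factor that binds the spliceosomal protein SF3B1 and is the target of sulfonamide degraders such as indisulam, led all RBM genes with 10, 8 and 6 clusters at 19 loci. A locus is the union of clusters of any replicate that share 1 or more bases on 1 strand of a single gene. The pooled edit fraction of RBM39 was 1.15%, 0.784% and 1.25% (1.06% ± 0.244). In replicate 1, 14 of its 69 edited bases came from 2 edited reads of the cluster from 34319537 to 34319672. That cluster had only 155 of the 6022 covered C of RBM39 in this replicate.

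The other splicing genes held fewer clusters. RBM25, which associates with the U1 snRNP and regulates splice site choice, had 4, 1 and 3 clusters at pooled edit fractions of 2.26%, 1.86% and 2.50%. RBM22, a spliceosome component that contacts the U6 snRNA and the intron, had 3, 3 and 2 clusters at 0.891%, 1.15% and 1.65%. RBM17, also known as SPF45 and involved in 3′ splice site use, had 2, 1 and 4 clusters at 0.782%, 0.931% and 0.957%. These genes were edited in every replicate, with RBM25 above RBM22 and RBM17 in each of them. In replicate 2, RBM25 rested on 2 edited reads (4 of 215 covered C). Its interval of 0.726% to 4.69% held the values of RBM22 and RBM17. RBM22 in replicate 3 also rested on 2 edited reads. Median cluster depths were 24.5 reads for RBM25, 46.0 for RBM22 and 54.9 for RBM17. The part of depth in such orders of genes was not tested. RBM23, the close paralog of RBM39, had 1 cluster in each replicate at 0.904%, 0.672% and 1.02%. Its levels lay near those of RBM39 while RBM39 held 24 clusters to the 3 of RBM23.

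RBM5, RBM6 and RBM10 are related regulators of alternative splicing. RBM6 had 2, 1 and 2 clusters at pooled edit fractions of 0.936%, 0.604% and 1.83%. RBM10 had 1 cluster in replicate 1 (1.24%) and 1 in replicate 2 (4.71%), and RBM5 was not listed. RBMX2, a subunit of a complex bound to the activated spliceosome, had 1 cluster in replicates 1 and 3 at the same locus. RBM11, a tissue-restricted splicing regulator, had 2 clusters each in replicates 1 and 3. The minor spliceosome proteins RBM41 and RBM48 had 1 cluster each.

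RBM8A, also called Y14, is a core subunit of the exon junction complex that is deposited upstream of splice junctions. It held 3, 6 and 3 clusters at pooled edit fractions of 1.35%, 1.08% and 1.40% (1.28% ± 0.171). Of its 12 clusters, 10 named exon segment 5. Among the 64 RBM clusters with a single edited read, the one with the most edited bases lay in this gene. In replicate 2, the cluster on chromosome 1 from 145511041 to 145511146 had 9 edited bases of 521 covered C, all from 1 edited read of 78.

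RBM15 and RBM15B belong to the SPEN family and recruit the m6A methyltransferase complex to RNA. RBM15B had 4, 7 and 4 clusters with pooled edit fractions of 0.805%, 1.20% and 1.05% (1.02% ± 0.198), and all 15 named exon segment 0. RBM15 had 2, 6 and 2 clusters at 1.78%, 2.12% and 2.51% (2.14% ± 0.366). RBM15 was above RBM15B in each replicate, at median cluster depths of 21.9 reads for RBM15 and 31.4 for RBM15B. A single edited read lay behind 6 of the 10 RBM15 clusters and 3 of the 15 RBM15B clusters. In replicates 1 and 3 the exon cluster of RBM15 was at 1.13% and 1.10%, and its intron cluster at 4.17% and 3.69%. In replicate 2 its exon clusters ran from 1.22% to 2.19%. The part of intron clusters in the difference from RBM15B was not tested. Of the 7 RBM clusters that named an intron, 5 lay in RBM15 and 3 of those in replicate 2.

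The genes of nuclear RNA decay and export had 34 clusters (11, 11 and 12), with a median edit fraction of 2.70% at a median depth of 12.0 reads. RBM26 and RBM27 are paralogous zinc-finger proteins linked to the poly(A) tail exosome targeting connection. RBM26 had 6, 5 and 8 clusters at 16 loci, and its pooled edit fraction was 1.47%, 1.80% and 2.06% (1.78% ± 0.300). RBM27 had 3, 4 and 1 clusters at 9.17%, 4.47% and 7.69% (7.11% ± 2.40). RBM27 exceeded RBM26 in every replicate, but its 8 clusters, all in exon segment 41, had mean depths of only 3.70 to 12.5 reads. RBM33, an RNA-binding protein with a role in mRNA export, had 1, 1 and 3 clusters, and RBM7, the RNA-binding subunit of the nuclear exosome targeting complex, had 1, 1 and 0.

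RBMX, or hnRNP G, binds nascent transcripts and regulates splicing, and RBMXL1 is its retrogene copy. RBMX had 5, 2 and 6 clusters at pooled edit fractions of 0.692%, 0.557% and 0.718% (0.656% ± 0.0865), the lowest mean among the 17 genes present in every replicate. RBMXL1 had 1, 2 and 1 clusters at 4.69%, 5.65% and 4.44% (4.93% ± 0.635). Median cluster depths were 110 reads for RBMX and 27.5 for RBMXL1. The 2 sequences are near-identical, so that reads may be split or dropped between them, and the levels of both are uncertain. In all 4 RBMXL1 clusters, covered C amounted to only 16.2% to 36.8% of what the C bases and the mean depth would give.

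The remaining role groups were small. RBM3, a cold-inducible protein that promotes translation, had 3, 1 and 1 clusters at pooled edit fractions of 0.727%, 0.847% and 1.05% (0.876% ± 0.164). RBMS1, which binds single-stranded nucleic acids, had 2, 2 and 1 clusters at 1.77%, 2.70% and 2.15%. Both genes were edited in each replicate, and RBMS1 was above RBM3 each time. In replicate 3, RBMS1 rested on 1 edited read (2 of 93 covered C), and its interval of 0.592% to 7.51% held the RBM3 value. Median cluster depths were 15.7 reads for RBMS1 and 128 for RBM3. RBM38, a regulator of mRNA stability induced by p53, had 1, 0 and 2 clusters. The nucleolar proteins RBM19 and RBM28 had 4 clusters in all. RBM18 had 1, 4 and 1 clusters, all in exon segment 0, at 3.68%, 1.92% and 5.32%, and RBM12B had 1, 0 and 2.

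RBM4 and RBM4B are neighbouring paralogs that regulate splicing and translation, and RBM14 next to them encodes a paraspeckle protein. Named first, RBM4 had 1, 2 and 0 clusters, RBM4B 1, 0 and 1, and RBM14 a single cluster in replicate 2 at 0.665%. The clusters with RBM4 named first lay on the plus strand from 66433912 to 66435697 and also listed RP11-658F2.8. They fell between the RBM4B clusters, which lay on the minus strand from 66433009 to 66436641. Whether their reads come from RBM4 was not tested. None of the 3 genes was present in every replicate by first name. RBM4 was however listed after the readthrough gene RBM14-RBM4 in a further 2, 5 and 5 clusters, which are not among the 185. These lay on the plus strand between 66407441 and 66413940. At one such locus, on chromosome 11 from 66407441 to 66407486, editing was found in each replicate. It held 17 edited of 1629 covered C, 12 of 1731 and 7 of 1144, or 1.04%, 0.693% and 0.612% (0.783% ± 0.229), at mean depths of 167, 174 and 110 reads. RBM12 was likewise listed only after CPNE1, in 5, 5 and 0 clusters on chromosome 20 between 34237897 and 34242487, with edit fractions of 0.518% to 5.41%. Reads in these overlapping genes cannot be assigned to one of them.

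Few RBM loci recurred. Of 159 loci, 4 were found in all 3 replicates (2.52%, against 4.77% of the 33246 loci of all genes), 18 in 2 and 137 in 1. Thus 22 loci (13.8%) were found in at least 2 replicates, against 16.6% of all loci. The 4 loci lay in RBM39 (2 loci), RBM15B and RBMX. A further 7 genes present in every replicate, namely RBM6, RBM17, RBM18, RBM22, RBM23, RBM33 and RBMS1, shared no locus between replicates.

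The clusters of a locus need not span the same bases in each replicate, and all 3 replicates shared 15 to 45 bases at these 4 loci. The first RBM39 locus lay in exon segment 2 on the minus strand of chromosome 20, from 34293130 to 34293250 (coordinates as deposited, build hg19). It had 22 edited of 1229 covered C in replicate 1, 4 of 274 in replicate 2 and 2 of 127 in replicate 3, or 1.79%, 1.46% and 1.57% (1.61% ± 0.168). Edited reads numbered 10, 2 and 2 at mean depths of 158, 100 and 63.8. The intervals overlapped, and replicate 1, whose cluster spanned 120 bases against 60 and 30 in the others, held most of the edited reads. The second, in segment 29 from 34319777 to 34319927, had 6 of 679, 12 of 765 and 13 of 540, or 0.884%, 1.57% and 2.41% (1.62% ± 0.763). At this second locus, the cluster of replicate 1 spanned 45 bases and those of replicates 2 and 3 spanned 105 and 120, with 15 bases in common. Covered C was 93.6%, 57.0% and 55.7% of the product of C bases and mean depth. The cluster of replicate 2 lay within that of replicate 3. The value of replicate 1 thus comes largely from other bases than those of replicates 2 and 3. The part of this in the spread of the 3 values was not tested.

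In RBM15B, the recurrent locus lay on the plus strand of chromosome 3 from 51431356 to 51431611, in exon segment 0. It held 34 edited of 4403 covered C, 14 of 2121 and 33 of 3823, or 0.772%, 0.660% and 0.863% (0.765% ± 0.102), from 9, 5 and 11 edited reads. In RBMX, the locus lay in segment 4 on the minus strand of chromosome X, from 135956167 to 135956302. It held 7 of 1278, 17 of 3764 and 11 of 1562, or 0.548%, 0.452% and 0.704% (0.568% ± 0.127), from 7, 9 and 6 edited reads. These 2 loci had the most even edited read counts of the 4 and edit fractions under 1% in every replicate.

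The 18 loci found in 2 replicates were spread over 11 genes. RBM8A held 4 of them and RBM26 held 3. At the RBM8A locus on chromosome 1 from 145508916 to 145508946, the edit fraction was 0.624% in replicate 2 and 0.761% in replicate 3, at mean depths of 280 and 198 reads. At the RBM3 locus on chromosome X from 48436464 to 48436539, 11 of 1298 covered C were edited in replicate 2 (0.847%) and 11 of 1045 in replicate 3 (1.05%). At both loci the 2 values lay within each other's intervals. At the RBM8A locus from 145509271 to 145509391, the values were 1.49% in replicate 1 and 0.838% in replicate 2, at mean depths of 50.5 and 115. The RBM27 locus on chromosome 5 from 145668465 to 145668510 had 4.26% in replicate 2 and 7.69% in replicate 3. These fractions, from a depth of 12.5 and 7.52 reads, were above those of the RBM3 and RBM8A loci named here.

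Paralogs and the longer transcripts gave further shared loci. In RBM15, the locus on chromosome 1 from 110888990 to 110889050 had 1.13% in replicate 1 and 1.10% in replicate 3, and the one from 110888132 to 110888251 had 2.19% in replicate 2 and 3.69% in replicate 3. In RBM15B, a locus directly downstream of the one found in every replicate, from 51431671 to 51431791 on chromosome 3, had 1.47% in replicate 1 and 3.94% in replicate 2. Both m6A adaptors thus had overlapping clusters in more than one replicate, at levels that varied more in some loci than in others. The RBM15 locus from 110888132 rested on 1 edited read in replicate 2 and 1 in replicate 3, at mean depths of 17.2 and 15.7. Its level is therefore uncertain. The other RBM15 locus had 4 and 2 edited reads, and the RBM15B locus had 2 and 4. In RBM26, the locus from 79888977 to 79889082 on chromosome 13 had 1.45% in replicate 1 and 1.52% in replicate 3. RBM25 had one shared locus, on chromosome 14 from 73578860 to 73578905, at 1.43% in replicate 1 and 2.70% in replicate 3. RBMXL1 had 3.28% in replicate 2 (2 of 61 covered C) and 4.44% in replicate 3 (2 of 45) at its shared locus. The RBMX locus on chromosome X from 135951376 to 135951496 had 1.04% in replicate 1 and 2.72% in replicate 2. The value of RBMX in replicate 2 came from 1 edited read. In replicate 2, the only one listed for both loci, the intervals were 0.904% to 11.2% for RBMXL1 and 1.17% to 6.20% for RBMX, and overlapped. Over all 22 shared loci, the mean edit fraction ran from 0.568% to 5.97% with a median of 1.38%, and the intervals of the replicates overlapped at each.

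**Figure D2:**
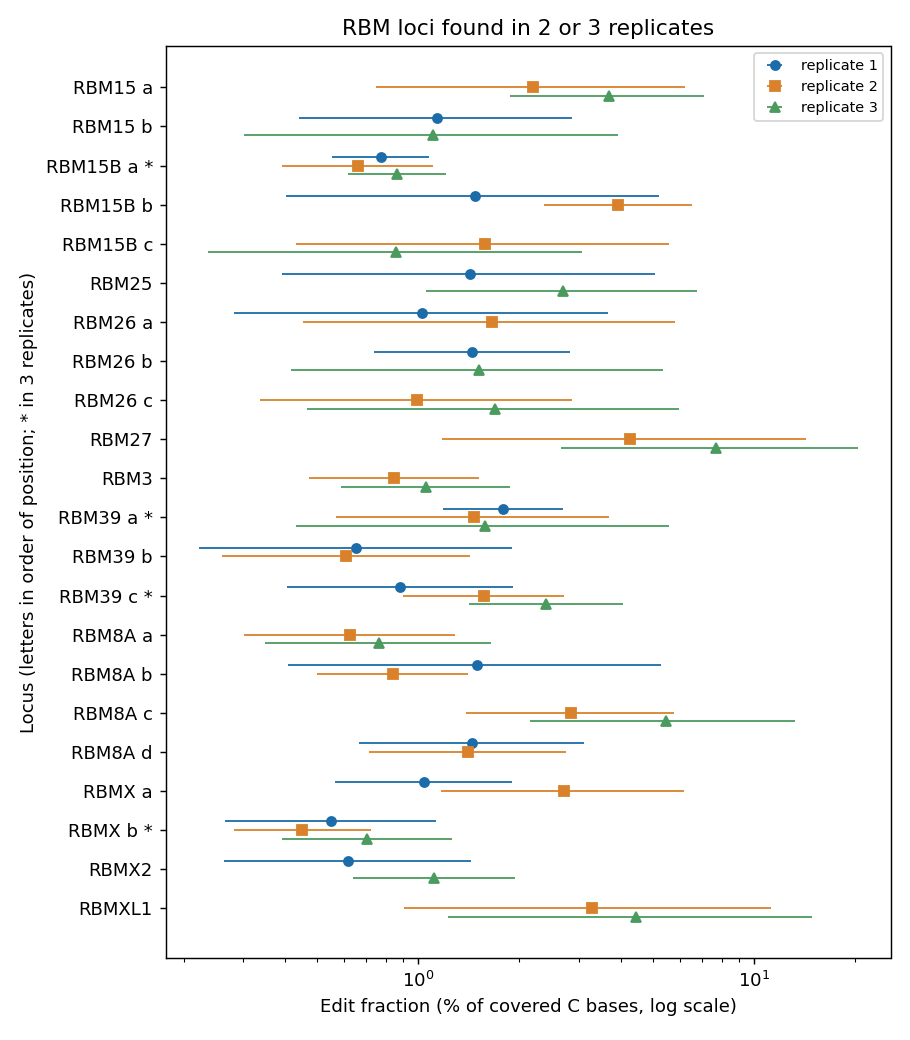
Edit fraction in percent of covered C for the 22 RBM loci found in at least 2 replicates, 1 point per replicate with its 95% Wilson interval; letters number a gene's loci by position and an asterisk marks the 4 loci found in all 3 replicates. Intervals overlap between replicates at every locus, and mean levels run from 0.568% to 5.97%.

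Recurrence was highest in clusters with many edited reads. RBM clusters with 1 edited read overlapped a cluster of another replicate in 10 of 64 cases (15.6%), those with 2 in 17 of 64 (26.6%), those with 3 or 4 in 8 of 36 (22.2%) and those with 5 or more in 13 of 21 (61.9%). Over all genes, the shares were 18.2%, 22.7%, 38.1% and 76.8%. RBM clusters were thus above all clusters in the class with 2 edited reads and below them in the other 3, on small counts. The 12 clusters at the loci found in every replicate had a median of 6.5 edited reads and a depth of 101, whereas those found in a single replicate had medians of 2 and 25.8.

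Edit fractions of RBM clusters fell with read depth. Across clusters, Spearman's rho between mean depth and edit fraction was -0.757, -0.790 and -0.792 in the 3 replicates. The 2 measures are not independent, since the number of covered C rises with depth. By the paper's method, a window of low depth also needs a stronger signal to be called. The part of either in the trend was not tested. The median edit fraction of RBM clusters was 6.45% for the 27 clusters under a depth of 10, 1.53% for the 36 at 20 to 30, and 0.775% for the 59 at 50 or more. Over all clusters the same classes gave 5.00%, 1.64% and 0.784%. In the shallowest class the RBM medians were 7.50%, 4.76% and 5.79% in the 3 replicates (6.02% ± 1.39), against 4.88%, 5.13% and 5.08% (5.03% ± 0.134) over all clusters. RBM was thus lower in replicate 2 and higher in the other 2, and the difference of the means was smaller than the RBM spread. In the deepest class the mean of the replicate medians was 0.800% ± 0.0740 against 0.784% ± 0.00975.

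**Figure D3:**
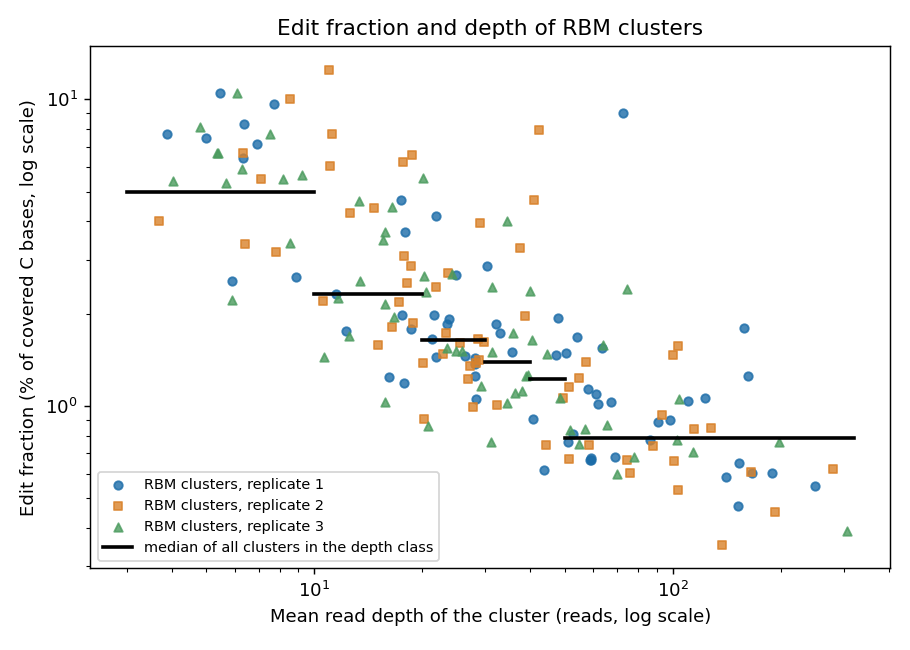
Edit fraction (percent of covered C, log axis) against mean read depth (reads, log axis) for the 185 RBM clusters, coloured by replicate; black bars are medians of all clusters in each depth class. RBM medians pass from 6.45% under a depth of 10 to 0.775% at 50 or more.

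Without regard to depth, RBM clusters had a median edit fraction of 1.46%, 1.59% and 1.69% (1.58% ± 0.118) and all clusters 1.64%, 1.65% and 1.80% (1.70% ± 0.0909). The pooled edit fraction was 1.11%, 1.17% and 1.24% (1.17% ± 0.0631) for RBM and 0.939%, 0.934% and 0.997% (0.957% ± 0.0348) for all clusters. The direction thus depended on the measure, with RBM lower by median and higher when pooled. A single edited read lay behind 17, 25 and 22 RBM clusters (34.7% ± 7.23, against 30.7% ± 2.55 of all). Of these 64 clusters, 55 (85.9%) had at least 2 edited bases on that read and 14 (21.9%) at least 5, against 83.8% and 14.5% over all genes.

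Most RBM clusters lay in exons. An intron was named for 1, 5 and 1 clusters (3.77% ± 3.72, against 2.12% ± 0.313 of all), in RBM15, RBM10 and RBM26, which is within the spread of the replicates. Segment numbers rose with position on the chromosome in 1719 of 1719 minus-strand genes with at least 2 exon numbers (1811 of 1812 on the plus strand), so that exon segment 0 of a minus-strand gene is its 3′-most one. RBM clusters on the minus strand lay in that segment in 43 of 92 cases (56.3%, 37.9% and 45.2% in the 3 replicates), against 12065 of 20288 over all genes (62.1%, 57.2% and 59.2%). The RBM share was lower in each replicate, but it differed between genes. RBM39 had 6 of its 24 clusters in that segment, and the 13 RBMX clusters named segments 2 and 4. Of the 13 minus-strand RBM genes, 10 had a cluster in exon segment 0. In RBM26 it held 11 clusters between 79886112 and 79889128 on chromosome 13, among them 2 of the 3 loci found in 2 replicates.

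With all clusters, RBM transcripts had higher pooled edit fractions than those of 3 other groups of RNA-binding proteins. These were hnRNP genes, which encode abundant nuclear RNA-packaging proteins, SR and TRA2 genes, which encode splicing activators, and DEAD and DEAH box genes, which encode RNA helicases. The pooled edit fraction was 0.676% ± 0.0499 for hnRNP genes, 0.937% ± 0.114 for SR and TRA2 genes and 0.849% ± 0.0492 for DEAD and DEAH box genes, each n = 3. RBM was higher by 0.496 ± 0.0227, 0.235 ± 0.0508 and 0.323 ± 0.0429 percentage points, in 3 of 3 replicates each. The two-sided exact permutation test gave p = 0.1 for each of the 3 comparisons, adjusted p = 0.1, which is the smallest that 3 against 3 values allow. This test does not use that both values of a replicate come from 1 library. The within-replicate differences were 0.471, 0.515 and 0.503 points from hnRNP, 0.283, 0.238 and 0.182 from SR and TRA2, and 0.316, 0.284 and 0.369 from DEAD and DEAH box genes. A paired exact sign-flip test gave p = 0.25 for each, the smallest that 3 pairs allow.

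Read depth moved with these differences. The median depth was 29.0 ± 4.73 for RBM clusters, 114 ± 47.0 for hnRNP, 69.3 ± 13.2 for SR and TRA2 and 44.2 ± 10.4 for DEAD and DEAH box clusters. With only clusters at a depth of at least 50, which left 27, 19 and 13 RBM clusters, the RBM level was 0.801% ± 0.0503. The difference was then 0.176 ± 0.0532 percentage points from hnRNP, 0.124 ± 0.0830 from DEAD and DEAH box and 0.00711 ± 0.120 from SR and TRA2 genes (exact permutation p = 0.1, 0.1 and 0.9). By the pooled measure, the difference from SR and TRA2 genes was thus smaller than its spread, and the other 2 were smaller than without the depth limit. By the median edit fraction at this depth, RBM (0.800% ± 0.0740) lay below hnRNP (0.819% ± 0.0720) and SR and TRA2 genes (0.887% ± 0.0530) and above DEAD and DEAH box genes (0.785% ± 0.0833). Without the depth limit the RBM median of 1.58% was above those of the 3 groups, at 1.08%, 1.09% and 1.23%. The order of these means against hnRNP and SR and TRA2 genes thus changed with the depth limit, but not in every replicate. With the limit, the replicate medians were 0.884%, 0.742% and 0.775% for RBM and 0.843%, 0.738% and 0.876% for hnRNP genes. Those of SR and TRA2 genes were 0.874%, 0.945% and 0.841%, and those of DEAD and DEAH box genes 0.730%, 0.881% and 0.745%. RBM was above hnRNP in replicates 1 and 2 and above SR and TRA2 genes in replicate 1. It was below DEAD and DEAH box genes in replicate 2. With at least 2 edited reads, the pooled difference from SR and TRA2 genes was 0.109 ± 0.101 points (exact permutation p = 0.2).

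**Figure D4:**
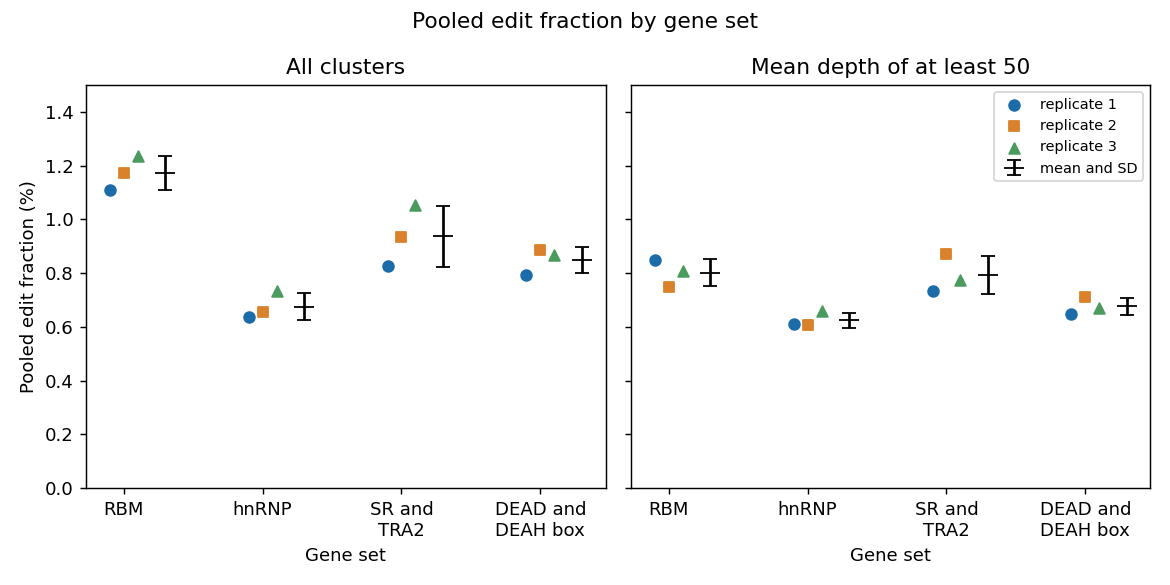
Pooled edit fraction (percent of covered C) of RBM, hnRNP, SR and TRA2, and DEAD and DEAH box genes, with all clusters (left) and with clusters of mean depth of at least 50 (right); points are replicates, bars the mean and SD. RBM lies at 1.17% on the left and 0.801% on the right, where SR and TRA2 genes lie at 0.793%.

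RBM clusters had the lowest share of recurrent clusters among the 4 groups. Those found in all 3 replicates were 6.49% ± 0.267 of RBM clusters, against 11.2% ± 1.71 of all, 35.5% ± 3.66 of hnRNP, 20.6% ± 3.39 of SR and TRA2 and 14.5% ± 2.07 of DEAD and DEAH box clusters. The 3 replicate values count the same loci and are not independent, so that no test was run. At a depth of at least 50, the shares were 22.2% ± 8.04 for RBM, 36.4% ± 6.08 for hnRNP, 24.9% ± 6.49 for SR and TRA2 and 18.9% ± 4.48 for DEAD and DEAH box genes. In these deeper clusters, the RBM share lay below those of hnRNP and of SR and TRA2 genes in each replicate. Against DEAD and DEAH box genes it was lower in replicate 1 (14.8% against 18.2%). It was higher in replicate 2 (21.1% against 14.8%) and replicate 3 (30.8% against 23.7%).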

How the data were processed

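HEK293T (HEK293XT) cells expressing RBFOX2-APOBEC1 were sequenced as stranded polyA RNA libraries in 3 replicates. The submitters' processing notes name STAR and build hg19, and whether deposited starts count from 0 or 1 is not given in the sources used here. The authors tested windows of 30 bases for C-to-U edits, kept windows with an adjusted p under 0.1 and merged those within 15 bases, each replicate separately, so windows that were not called are not seen. The deposited files give per cluster counts of edited bases, covered C and reads, an edit fraction, the mean depth as coverage, and a score that is a cumulative probability under a negative binomial model. Edit fraction equalled edited over covered C in all 40843 clusters. No molecular identifiers were used. The replicates are called biological, and no source here ties them to separate cultures.

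RBM clusters were selected by first-listed gene name. Members and gene lists were chosen with earlier results of these data known. Every member gene was accounted for in its role group, every locus found in all 3 replicates was given in each replicate, and the 5 genes with the most loci and the paralog pairs were described. Loci were unions of clusters sharing 1 or more bases on 1 strand. Intervals are Wilson 95% over covered C, without regard to edits that share a read. Pooled edit fractions of RBM and 3 other gene groups were compared by two-sided exact permutation over replicate values with Benjamini-Hochberg adjustment, and by an exact sign-flip test of within-replicate differences, since both groups of a pair come from the same library. Alternatives were a minimum score of 0.95 or 0.99, a minimum mean depth of 50, at least 2 edited reads, an overlap of at least 50%, the mean for the median, leaving out clusters that overlap another gene's, leaving out each replicate, and any listed gene name. Symbols were compared with RefSeq's GRCh38 table by name only. Scripts ran under Python 3.11.15 with pandas 2.3.3 for tables, NumPy 2.4.6 and SciPy 1.17.1 for statistics, and matplotlib 3.10.9 for plots, and were tested on simulated data. Sequences are not shown, because no genome of build hg19 was used here.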

Additional observations from a re-analysis of the deposited data

How the results depend on the processing

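The values listed here moved by more than 1 SD between replicates or, for counts, by more than 1.5 times. Exceptions are the pooled edit fractions with 1 replicate left out and the differences between gene groups, which are listed for their size. A minimum score of 0.95 gave a share of RBM clusters found in all 3 replicates of 6.82%, and 0.99 gave 8.12%, with 37 clusters per replicate, a median edit fraction of 2.04% and a pooled one of 1.30%. A minimum mean depth of 50 left 19.7 clusters per replicate (0.521% of all), a median of 0.800%, a pooled edit fraction of 0.801%, 22.2% found in all 3 replicates, 6 genes in all 3 replicates and introns in 0%. The pooled differences between gene groups, judged by sign alone, kept their sign under each alternative run on them, but their size did not hold. At a depth of 50 they were 0.176 (hnRNP), 0.124 (DEAD and DEAH box) and 0.00711 (SR and TRA2, p = 0.9 by exact permutation), and with at least 2 edited reads 0.363, 0.229 and 0.109 (p = 0.2 for SR and TRA2 by exact permutation). At least 2 edited reads left 40.3 clusters, a median of 1.19%, a pooled edit fraction of 1.02%, 10.04% found in all 3 replicates and 11 genes in all 3. An overlap of at least 50% left 1 RBM locus in all 3 replicates and 0.538% of clusters. The mean edit fraction was 2.53% in place of the median. Any listed gene name, chosen after seeing the data, gave a pooled edit fraction of 1.09% and 7.27% found in all 3 replicates. Leaving out 1 replicate, the share found in both others was 13.0% to 19.8% and the loci 8 to 12 (8 without replicate 2, 10 without replicate 3, 12 without replicate 1). Pooled edit fractions were then 1.14% to 1.20%. With 2 values a group the smallest exact p is 0.333. With the replicate as a block, an alternative added after seeing the data, the paired differences of 0.496, 0.235 and 0.323 points each had an exact sign-flip p of 0.25, the smallest for 3 pairs. Levels under a depth of 10 rest on few reads, and the cause of the shifts was not tested.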

Other observations

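In a few RBM clusters the number of covered C bases was far below the product of the cluster's C bases and its mean depth. This ratio had a median of 98.7% over RBM clusters and 99.5% over all clusters, and it was under 50% in 12 of 185 RBM clusters (6.49%) and in 1820 of 40843 (4.46%). The 12 were all 4 RBMXL1 clusters, all 3 clusters with RBM4 named first (30.1% to 35.3%), 2 clusters of RBM39 and 1 each of RBM3, RBM10 and RBMX. Their median edit fraction was 4.57%, against 1.52% for the other RBM clusters. Over all genes the same medians were 3.26% and 1.65%. The RBM39 cluster of replicate 1 on chromosome 20 from 34319537 to 34319672 had a ratio of 8.90%, with 14 edited of 155 covered C (9.03%) from 2 edited reads of 81. Its mean depth was 72.5 reads. The part of missing C coverage in the levels of RBMXL1, RBM4 and RBM39 was not tested.

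At the RBM4 locus found in every replicate under a later name, replicate 1 listed 18 edited reads for 17 edited bases and replicate 2 listed 13 for 12. How the authors counted an edited read in such a cluster is not given in the sources used here.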
